A study of Mus musculus with 81 samples.

Results

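The Fc gamma receptors of mouse macrophages were followed through 79 RNA-seq libraries of WT and H3.3cKO cells. The genes were chosen by symbol: the activating receptors Fcgr1, Fcgr4 and Fcgr3, the inhibitory receptor Fcgr2b, the signalling chain Fcer1g and the neonatal Fc receptor Fcgrt. These are 6 of the 55603 genes listed in the count files, and all 6 passed the filter on low counts in every experiment. The study deleted both genes for the histone variant H3.3 in myeloid cells and compared the cells with WT cells. WT mice carried floxed H3f3a and H3f3b without cre, and H3.3cKO (cKO) mice carried the same floxed alleles with cre in both copies of Lyz2 (LysM cre/cre), so that cKO cells also lost Lyz2. The mice were male and female young adults on a C57BL/6 background, and LysM-cre acts in myeloid cells alone. The time course held bone marrow cells on days 3, 5 and 7 of culture in medium conditioned by L929 cells, a source of macrophage colony-stimulating factor, in which they become bone marrow-derived macrophages (BMDMs). Day 8 BMDMs were left untreated or given interferon-γ (IFNg) for 12 h. Peritoneal macrophages were taken from the abdominal cavity with an isolation kit. A further experiment grew BMDMs without antibody, with a mouse IgG1 isotype control or with a mouse IgG1 antibody that blocks the type I interferon receptor IFNAR1, added from the start of culture and refreshed, so that IgG was present in both antibody arms and not in the first. The last experiment held 3 sets of WT and cKO BMDMs and BMDMs of 3 double KOs, H3.3cKO:StingKO, H3.3cKO:MavsKO and H3.3cKO:Irf7KO, in which a germline deletion of a gene of nucleic acid sensing or of a transcription factor was added to the cKO. The labels do not tie a set to a double KO. Each group had 3 libraries, named as biological replicates, except the cKO groups of day 8 with 2. Whether replicates of one experiment came from separate animals was not stated for each library, so the p-values measure the spread between these libraries.

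Fc gamma receptors bind the constant part of IgG and tell phagocytes what antibodies have tagged. The product of Fcgr1 binds single IgG molecules with high affinity, while the products of Fcgr3, Fcgr4 and Fcgr2b bind mainly immune complexes. Fcgr1, Fcgr3 and Fcgr4 signal through the common γ chain encoded by Fcer1g, whose activation motif recruits the kinase Syk, and Fcgr2b carries an inhibitory motif that recruits the phosphatase encoded by Inpp5d. Fcgrt encodes the neonatal Fc receptor, a relative of MHC class I that pairs with β2-microglobulin inside cells and returns IgG from acidic endosomes to the surface. In macrophages interferon-γ is a known inducer of Fcgr1 and Fcgr4, and the balance of activating and inhibitory receptors sets the threshold for phagocytosis and cytokine release.

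In the GENCODE annotation of the mouse build GRCm38 (mm10), 4 of the 6 genes lay in one region of chromosome 1. These were Fcgr2b (chr1:170958617-170976547, minus strand), Fcgr4 (chr1:171018920-171029761, plus strand), Fcgr3 (chr1:171051174-171064935, minus strand) and Fcer1g (chr1:171229572-171234365, minus strand). Fcgr1 lay on chromosome 3 (chr3:96282909-96293969, minus strand) and Fcgrt on chromosome 7 (chr7:45092990-45103851, minus strand). Fcgr2b shared 155 exonic bases, 2.677% of its exons, with the gene Gm38204. Reads on bases that 2 genes share were set aside by the counting, and so were reads that matched 2 places, which could lower the counts of the related receptors.

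The starts of Fcgr1 and Fcgr4 are shown because these genes had the largest changes with IFNg in both genotypes. The 250 bases before the RefSeq start (GRCm38.p6) are given 5′ to 3′, at chr3:96293970-96294219 for Fcgr1 on the minus strand and at chr1:171018676-171018925 for Fcgr4 on the plus strand. Both strands of each promoter were searched for TTCNNNGAA (the gamma-activated site), the core of the interferon-stimulated response element (GAAA, any 2 bases and GAAA again) and GAGGAAGT (bound by PU.1, the product of Spi1), and the matches are in capitals.
Fcgr1: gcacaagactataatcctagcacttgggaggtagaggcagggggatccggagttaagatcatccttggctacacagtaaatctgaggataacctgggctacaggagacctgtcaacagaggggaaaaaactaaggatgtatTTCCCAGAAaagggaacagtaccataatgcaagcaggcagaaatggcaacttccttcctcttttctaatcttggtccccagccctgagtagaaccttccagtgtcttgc
Fcgr4: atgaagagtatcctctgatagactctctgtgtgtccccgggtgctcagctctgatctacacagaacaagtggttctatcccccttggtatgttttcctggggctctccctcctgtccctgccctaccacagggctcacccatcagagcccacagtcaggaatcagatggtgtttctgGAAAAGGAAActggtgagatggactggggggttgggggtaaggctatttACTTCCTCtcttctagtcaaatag
The Fcgr1 sequence held a gamma-activated site, which reads as a match on either strand, at bases 109 to 101 before the start. The Fcgr4 sequence held a response element core at bases 73 to 64 and a PU.1 motif on the minus strand at bases 24 to 17, and the matches did not overlap. The search covered windows of 300 bases, which hold the 250 bases shown and run on past the start. Of 32851 RefSeq promoters, 8.30% held the first motif, 3.44% the second and 3.20% the third. The promoters of the other 4 genes held no match in this window. A match is a run of letters and no measure of binding.

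Depth and the targeted genes were read first. The counts on genes ran from 14419697 to 20220329 a library in the time course and from 3614967 to 9879339 on day 8. Peritoneal libraries held 7625225 to 23381318 counts, those of the antibody arms 5295144 to 34380735, and the sets with their double KOs 21504555 to 45581528. Levels are given as CPM, counts brought to a common library total after scaling by the trimmed mean of M-values within an experiment. H3f3a lay between 33.6 and 93.8 CPM in WT and between 1.21 and 15.3 CPM in cKO and double KO libraries, and Lyz2 between 4465 and 76406 CPM against 1.69 to 81.9 CPM. H3f3b overlapped between the genotypes, with 181 to 536 CPM in WT and 16.7 to 361 CPM in cKO and double KO libraries. Its fall differed by experiment. On day 3 it was at 222 to 249 CPM in WT and 175 to 222 CPM in cKO. In BMDM set 1 it was at 200 to 285 and 193 to 220 CPM. Without antibody it was at 325 to 468 and 31.8 to 63.0 CPM. The study reports partial as well as complete deletion of H3f3b among its cKO samples. Tmem173, which encodes STING, was at 5.01 to 6.10 CPM in H3.3cKO:StingKO and at 68.2 to 91.6 CPM in the cKO sets. Irf7 was at 98.3 to 112 CPM in H3.3cKO:Irf7KO and at 249 to 470 CPM in the cKO sets. The WT sets held 36.6 to 155 CPM of Irf7, so these counts do not check that label. Mavs was at 37.2 to 37.9 CPM in the libraries labelled H3.3cKO:MavsKO, inside the 36.0 to 51.6 CPM of the cKO sets. The study describes a loss of Mavs exons that it tested by genotyping and RT-PCR. Counts over the whole gene do not resolve exons and do not check the label. Some libraries stood apart. The IFNg-treated cKO library replicate 1 of day 8 was the smallest, with 57.06% of its reads unmapped. WT day 7 replicates 1 and 2, cKO day 5 replicate 1, and, in the BMDM sets, WT set 1 replicate 2 and WT set 3 replicate 1 differed from the other replicates in the members, and their values are given beside each result.

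Markers of the labelled cell type were present in all groups. The summed level of 9 macrophage genes (Csf1r, Adgre1, Itgam and others) was between 5869 and 18644 CPM. The 5 genes of peritoneal macrophages, among them Gata6 and Timd4, summed to 7116 to 9840 CPM in peritoneal libraries and to at most 32.3 CPM elsewhere. Mast cells also express Fcer1g. The 7 markers of mast cells and basophils summed to 27.2 to 34.1 CPM in cKO and 10.4 to 18 CPM in WT on day 3, while 1 of them, Fcer1a, the IgE-binding chain, reached 0.314 CPM at most in any library. In bulk libraries, fewer cells of a type and less RNA per cell cannot be told apart.

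Fcer1g had the highest level of the 6 genes in most libraries. Between genes, levels are compared as FPKM, the CPM divided by the exon length in kilobases. By this scale Fcer1g ranked first in 73 of 79 libraries and Fcgr3 in the other 6, which were the peritoneal ones. Fcgr3 was next to the top in 62 libraries. Below them the most frequent rank was 3 for Fcgr1 (43 libraries), 4 for Fcgr4 (38), 5 for Fcgrt (34) and 6 for Fcgr2b (44). The signalling chain varied least, between 278 and 718 CPM over the 79 libraries, with a median of 476 CPM. Fcgr1 and Fcgr4 had the widest spans as ratios. Fcgr1 spanned 7.47 to 1366 CPM, Fcgr4 9.28 to 723 CPM and Fcgr3 86.3 to 2295 CPM. Fcgr2b spanned 15.1 to 470 CPM and Fcgrt 8.09 to 330 CPM.

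**Figure D1:**
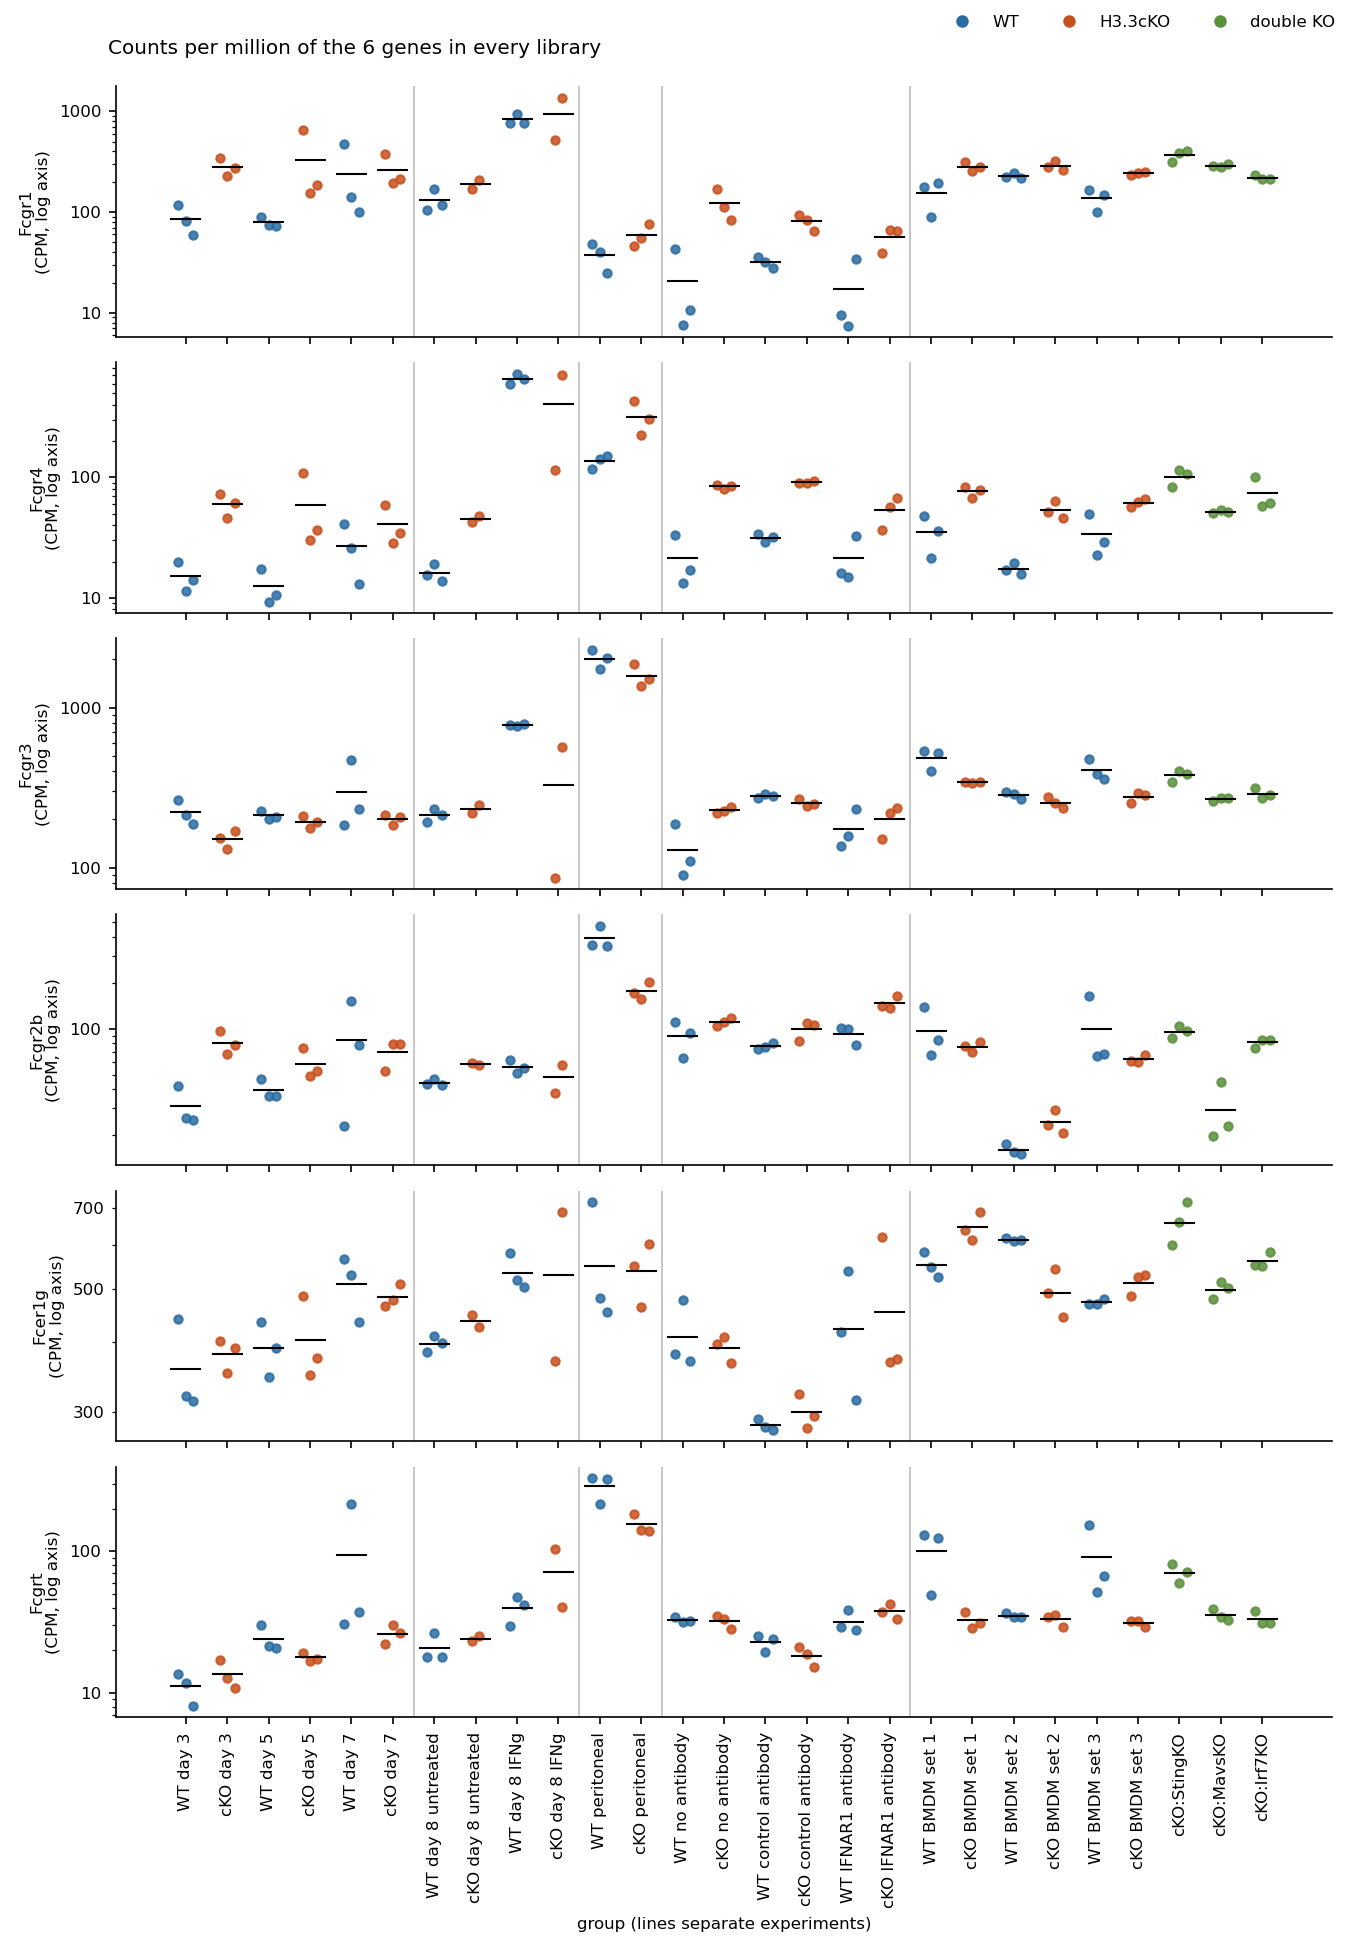
Level of each gene in CPM (log axis) in every library of the 27 groups, with points for libraries and a bar for the group mean. Fcgr1 and Fcgr4 were high in the IFNg-treated groups, up to 1366 and 723 CPM, and Fcgr3, Fcgr2b and Fcgrt in WT peritoneal macrophages, up to 2295, 470 and 330 CPM.

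The 27 groups were put in order for each gene, after all libraries had been scaled together. Fcgr1 was highest in the IFNg-treated groups, with a mean of 412 ± 302 FPKM (SD, n = 2) in cKO and 374 ± 32.6 FPKM (n = 3) in WT, and lowest with 6.10 ± 5.47 FPKM in WT cells with IFNAR1 antibody. Fcgr4 ranged from 9.91 ± 3.27 FPKM in WT cells on day 5 to 611 ± 41.5 FPKM in IFNg-treated WT cells. Fcgr3, Fcgr2b and Fcgrt had their highest means in WT peritoneal macrophages, at 1320 ± 181, 76.3 ± 12.3 and 157 ± 37.7 FPKM. Fcgr3 was lowest in WT BMDMs without antibody (68.6 ± 28.2 FPKM), Fcgr2b in WT BMDM set 2 (2.67 ± 0.214 FPKM) and Fcgrt in WT cells on day 3 (5.37 ± 1.36 FPKM). Fcer1g ranged only from 296 ± 9.96 FPKM in WT cells with control antibody to 729 ± 65.2 FPKM in H3.3cKO:StingKO. Of the 26 pairs of neighbours in each order, 25 overlapped for Fcgr1, 24 for Fcgr3, Fcgr4 and Fcer1g, 23 for Fcgrt and 22 for Fcgr2b. Experiment, kit and cell source differ together between these groups and cannot be told apart in this order.

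**Figure D2:**
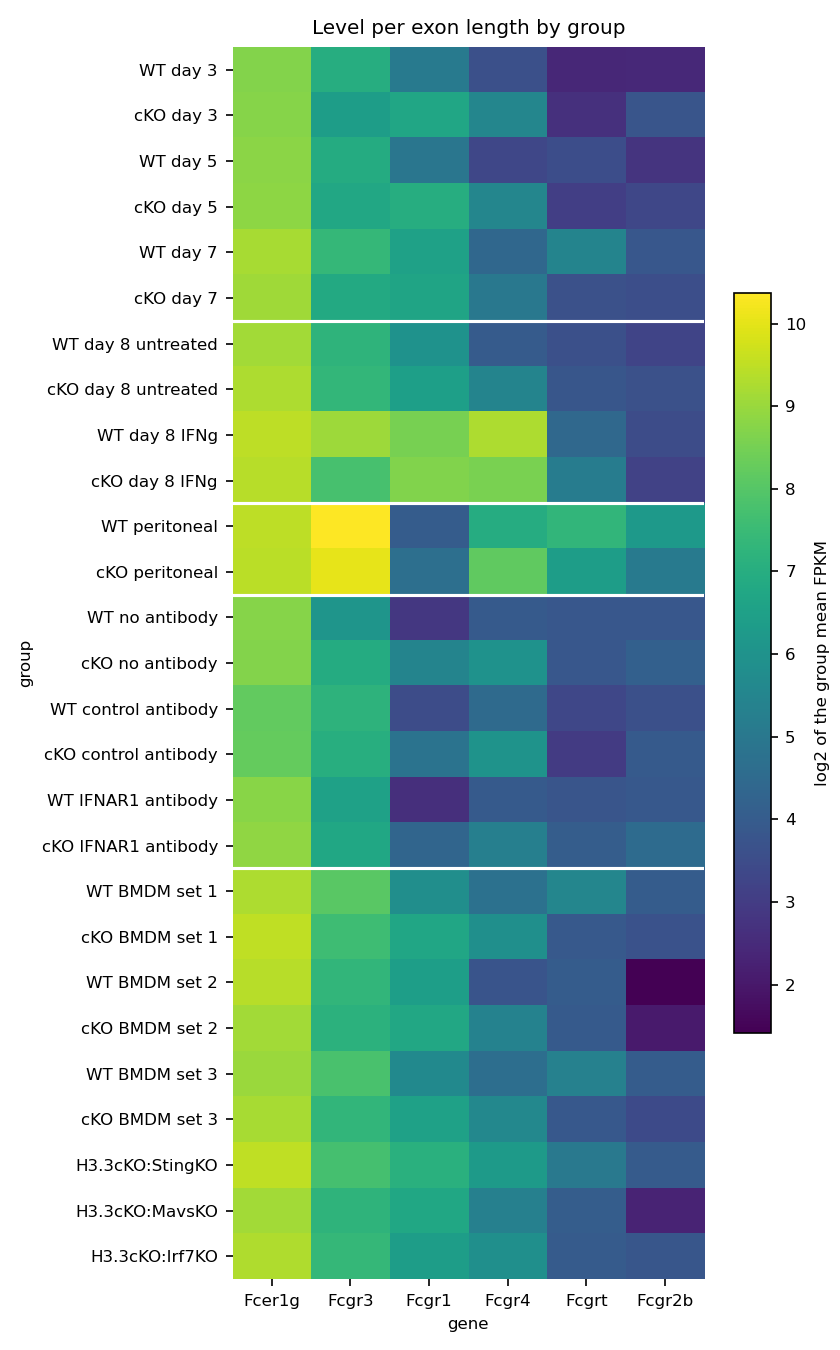
Group mean of each gene (columns) in the 27 groups (rows) as log2 FPKM, with white lines between experiments. Fcer1g was high in all groups, with means of 296 to 729 FPKM, while Fcgr2b was the lowest column in WT BMDM set 2 at a mean of 2.67 FPKM.

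The first question was whether the receptors differed between cKO and WT cells while progenitors became macrophages. On day 3, Fcgr4 was higher in cKO cells. Fcgr4 was at 19.8, 11.4 and 14 CPM in WT replicates 1 to 3 and at 73.2, 45.6 and 61.3 CPM in cKO. The cKO libraries were all above the WT libraries. The log2 fold change was 2.0 ± 0.49 (SE, 3.99-fold, adjusted p = 0.0161, edgeR quasi-likelihood test with Benjamini-Hochberg adjustment over all genes, as for all adjusted p-values here). It was 1 of the 6 genes past an adjusted p of 0.05, against 8.65% of the 15955 genes tested and 6% called higher. The call was lost without WT replicate 2, without WT replicate 3 and without cKO replicate 1. Fcgr1 was at 118, 81.1 and 58.7 CPM in WT and at 344, 228 and 272 CPM in cKO, without overlap. Its log2 fold change of 1.71 ± 0.56 missed the threshold (edgeR, adjusted p = 0.0731). With the replicate number as a block, which the data allow on this day, Fcgr1 passed (edgeR, adjusted p = 0.00376) with a log2 fold change of 1.77.

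The inhibitory receptor Fcgr2b was at 41.9, 26.1 and 25.3 CPM in WT and at 96.5, 68.0 and 77.9 CPM in cKO on day 3. The groups did not overlap, and the log2 fold change was 1.38 ± 0.44 (edgeR, adjusted p = 0.0612). Fcgr3 lay the other way, with 265, 212 and 187 CPM in WT and 154, 131 and 169 CPM in cKO. It did not overlap either, at a log2 fold change of -0.55 ± 0.25 (edgeR, adjusted p = 0.199). Fcer1g and Fcgrt overlapped between the genotypes, at means of 382 and 358 CPM for Fcer1g and 13.6 and 11.2 CPM for Fcgrt in cKO and WT. The median log2 fold change of the 6 genes was 0.83, beside 0.04 over all genes.

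On day 5, Fcgr4 was again the 1 gene called, against 3.12% of all genes and 2.46% called higher. It was at 17.5, 9.28 and 10.6 CPM in WT and at 109, 30.3 and 36.7 CPM in cKO. All cKO libraries were above WT, and replicate 1 was the highest of them. The log2 fold change was 2.24 ± 0.49 (edgeR, adjusted p = 0.0197). Without cKO replicate 1 it was 1.44 (edgeR, adjusted p = 0.150), and the call was also lost without WT replicate 2 and without WT replicate 3. Fcgr1 was at 89.1, 74.6 and 73.4 CPM in WT and at 656, 155 and 184 CPM in cKO. The groups did not overlap, and cKO replicate 1 stood far above the rest. The log2 fold change of 2.07 ± 0.57 did not pass (edgeR, adjusted p = 0.0640). In the same library the 16 genes of the interferon response list summed to 4029 CPM, beside 579 and 699 CPM in the other cKO libraries of day 5, and its part in the result was not tested.

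On day 7, 0 of the 6 genes passed in edgeR, 2 had an unadjusted p under 0.05 and DESeq2 called 1, against 1.82% of all genes called in edgeR. The WT libraries differed widely among themselves. Fcgr1 was at 475, 141 and 99.1 CPM in WT and at 377, 194 and 212 CPM in cKO, so that WT replicate 1 was above all cKO libraries. The interferon response genes summed to 1686 CPM in that WT library and to 478 and 337 CPM in the other WT libraries. Fcgrt was at 30.7, 215 and 37.4 CPM in WT and at 22.1, 30.3 and 26.4 CPM in cKO. The cKO libraries were all below WT, though replicates 1 and 3 of WT were close to them, and WT replicate 2 had the highest summed macrophage markers of the time course (13440 CPM). The log2 fold change of Fcgrt was -1.84 ± 0.52 (edgeR, adjusted p = 0.0823), and leaving out 1 library at a time moved it from -2.26 to -0.37, the latter without WT replicate 2. It passed without WT replicate 1 or 3. The log2 fold change of Fcgr3 was -0.55 ± 0.24 (edgeR, adjusted p = 0.271), with 183, 470 and 233 CPM in WT and 214, 186 and 206 CPM in cKO. It passed without WT replicate 1 (log2 fold change -0.80).

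From day 3 to day 7, 3 of the 6 genes rose in WT cells, against 24.5% of all genes called and 12.6% called higher. Fcgrt went from 13.7, 11.7 and 8.09 CPM to the day 7 values above. The days did not overlap, and the log2 fold change was 3.08 ± 0.55 (8.45-fold, edgeR, adjusted p = 0.00142). Leaving out WT day 7 replicate 2 lowered it to 1.61, and it passed in all 6 fits without 1 library. Fcgr2b rose from a mean of 31.1 to 84.5 CPM with overlap, since its day 7 values were 23.2, 152 and 78.6 CPM (log2 fold change 1.44 ± 0.44, edgeR, adjusted p = 0.0266). Without WT day 7 replicate 2 this was 0.71 and not called, and the call was also lost without WT day 3 replicate 2 or 3. Fcer1g was at 440, 320 and 313 CPM on day 3 and at 565, 529 and 436 CPM on day 7 (log2 fold change 0.51 ± 0.16, edgeR, adjusted p = 0.0293). That call was lost in 4 of 6 fits without 1 library, those without WT day 3 replicate 2 or 3 and without WT day 7 replicate 1 or 2.

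In cKO cells 0 of the 6 genes passed between day 3 and day 7 in edgeR and in DESeq2, 1 had an unadjusted p under 0.05, and 14.7% of all genes were called. The uncalled log2 fold changes lay between -0.56 and 0.95. Fcgrt was at 17.2, 12.8 and 10.8 CPM on day 3 and at 22.1, 30.3 and 26.4 CPM on day 7, without overlap. The change of the cKO effect from day 3 to day 7 was tested as an interaction term. It was called for 0 members in edgeR and in DESeq2, with 2 at an unadjusted p under 0.05, and for 0.0439% of all genes. Those 2 were Fcgrt (-2.13 ± 0.74, edgeR, adjusted p = 0.204) and Fcgr2b (-1.65 ± 0.61, edgeR, adjusted p = 0.222). So the genotypes were not shown to differ in how the receptors moved over the week.

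Other cells of the marrow were counted beside these results. The 8 neutrophil genes, among them S100a8 and Mpo, summed to 1583 to 3038 CPM in WT and 2732 to 4205 CPM in cKO on day 3, and to 74.1 to 131 and 89.9 to 276 CPM on day 7. Neutrophils express Fcgr3 and Fcgr4. The 5 markers of patrolling monocytes, which also express Fcgr4, summed to 67.2 to 87.5 CPM in WT and 145 to 218 CPM in cKO on day 3, to 59.997 to 78.7 and 113 to 170 CPM on day 5, and to 49.4 to 88.5 and 115 to 145 CPM on day 7, without overlap on any day. The 6 general monocyte markers summed to 253 to 481 CPM in WT and 646 to 885 CPM in cKO on day 3. The part of these cells in the receptor values was not tested. Interferon response genes moved with the genotype: their sum was 56.5 to 72.6 CPM in WT and 1420 to 2013 CPM in cKO on day 3, and 15 of the 16 genes were called higher. Of 10 transcription factors of the interferon response and of myeloid cells, 5 were higher in cKO on day 3, among them Irf9 (log2 fold change 1.75 ± 0.20), Stat2 (2.83 ± 0.43) and Irf1 (1.61 ± 0.25), which bind interferon response elements.

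The signalling partners of the receptors were called about as often as genes in general on day 3. Of 24 genes of activating Fc receptor signalling, 2 were higher in cKO on day 3 and 0 lower, against 6% of all genes called higher and 8.65% called in all, among them the kinase Src (log2 fold change 1.94 ± 0.42, edgeR, adjusted p = 0.00743). On day 5, 0 of the 24 passed in edgeR, and on day 7 1 did, against 3.12% and 1.82% of all genes. Of 9 genes of inhibitory signalling 0 passed on days 3, 5 and 7 in edgeR. Of 13 other immunoglobulin receptors 10 were tested and 6 were higher on day 3, against 6% of all genes. These included B2m (log2 fold change 1.83 ± 0.35, edgeR, adjusted p = 0.00357), the partner chain of the neonatal receptor, and Trim21 (1.60 ± 0.29, edgeR, adjusted p = 0.00250), the cytosolic antibody receptor. The list median was 1.65 on day 3, beside 0.04 over all genes.

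IFNg was given to day 8 BMDMs to ask whether the cells still responded. In WT cells 4 of the 6 genes passed with IFNg, all of them higher, against 38.9% of all genes called and 19.5% called higher. Fcgr4 had the largest change. It was at 15.4, 19 and 13.9 CPM untreated and at 595, 723 and 658 CPM with IFNg. The ranges were far apart, with a log2 fold change of 5.35 ± 0.56, which is 40.9-fold (edgeR, adjusted p = 6.29e-05). Fcgr1 went from 105, 171 and 117 CPM to 774, 950 and 770 CPM (log2 fold change 2.66 ± 0.33, edgeR, adjusted p = 0.000187). Fcgr3 went from 192, 232 and 213 CPM to 783, 771 and 792 CPM (log2 fold change 1.88 ± 0.49, edgeR, adjusted p = 0.0123). The activating receptors thus rose by 3.68-fold, 6.34-fold and 40.9-fold for Fcgr3, Fcgr1 and Fcgr4. The call of Fcgr3 was lost without untreated replicate 1.

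The inhibitory receptor and the shared chain moved less. Fcgr2b was at 43.7, 46.4 and 42.6 CPM untreated and at 62.1, 50.9 and 55.2 CPM with IFNg in WT, and Fcer1g at 384, 410 and 399 CPM and at 579, 519 and 503 CPM. The groups did not overlap for either gene, and neither passed (edgeR, lowest adjusted p = 0.121). Fcgrt was at 18.1, 26.4 and 17.9 CPM untreated and at 29.7, 47.6 and 41.5 CPM with IFNg. It rose by a log2 fold change of 0.93 ± 0.32 (edgeR, adjusted p = 0.0421). This call was weak: with the replicate number as a block the adjusted p in edgeR was 0.0780, and it was lost without untreated replicate 1 or 3 and without treated replicate 2 or 3. The median log2 fold change of the 6 genes was 1.40, beside -0.01 over all genes.

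**Figure D3:**
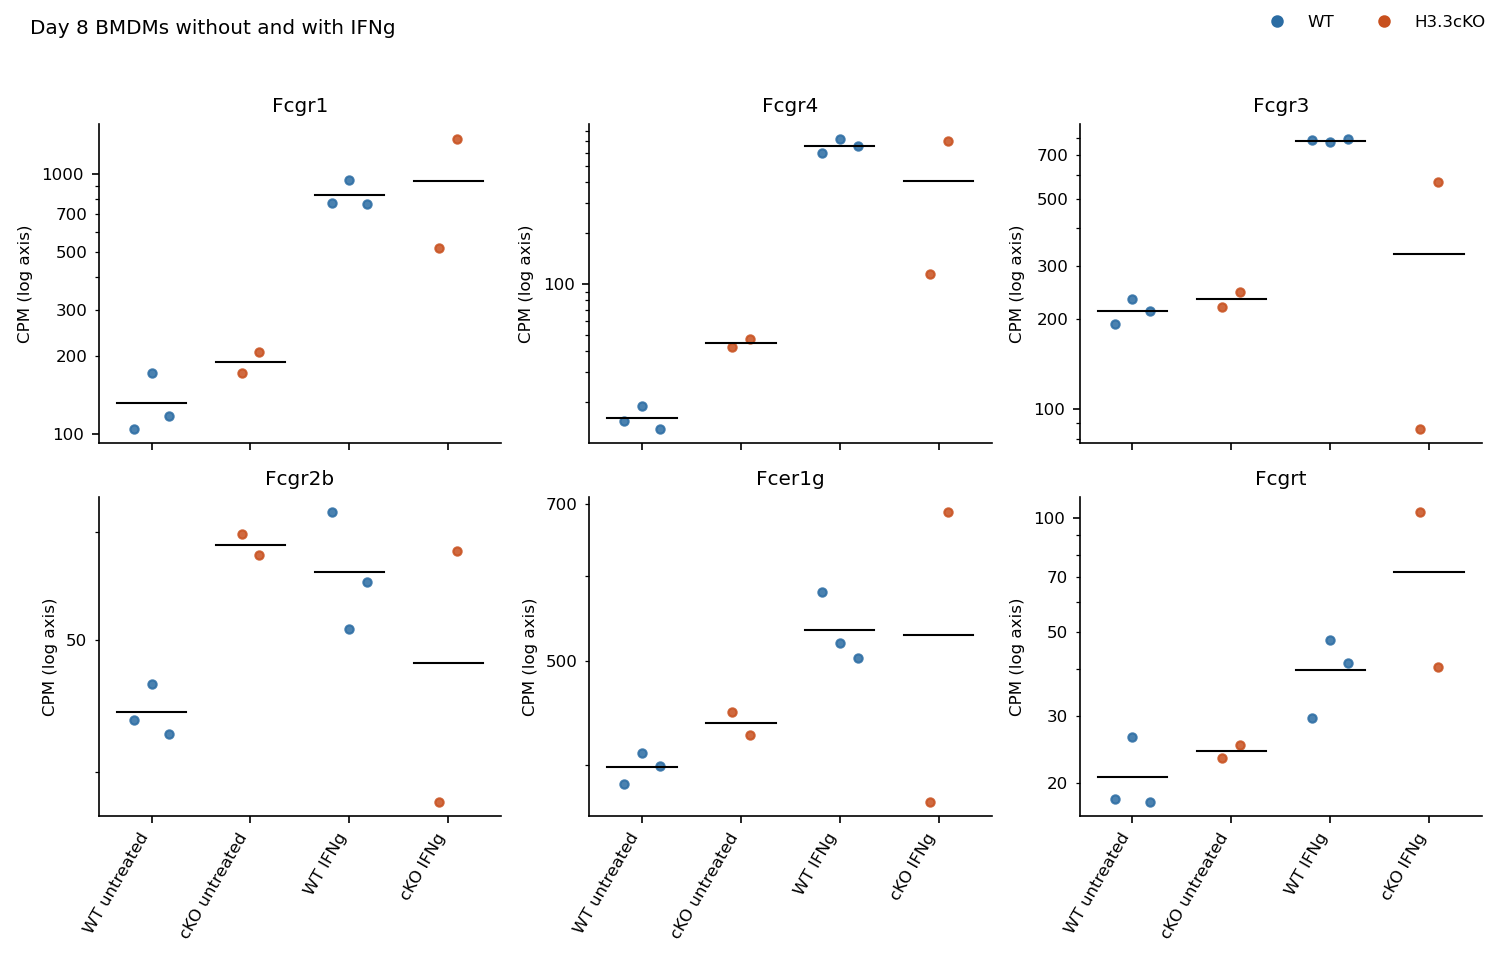
Level of the 6 genes in day 8 BMDMs without and with IFNg in CPM (log axes), with points for libraries and a bar for the group mean. Fcgr4 was at 595 to 723 CPM in IFNg-treated WT libraries, while the 2 IFNg-treated cKO libraries were far apart, at 114 and 703 CPM.

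In cKO cells 3 of the 6 genes rose with IFNg, against 33.9% of all genes called and 17.5% called higher. The treated cKO libraries differed strongly from each other. Fcgr1 was at 171 and 206 CPM untreated and at 521 and 1366 CPM with IFNg (log2 fold change 2.32 ± 0.40, edgeR, adjusted p = 0.00182). Fcgr4 was at 42.3 and 47.4 CPM untreated and at 114 and 703 CPM with IFNg (log2 fold change 3.19 ± 0.62, edgeR, adjusted p = 0.00351). Fcgrt was at 23.3 and 25.2 CPM untreated and at 104 and 40.4 CPM with IFNg (log2 fold change 1.56 ± 0.40, edgeR, adjusted p = 0.0138). Treated libraries were above untreated ones for these genes, with the lower Fcgr1 and Fcgr4 and the higher Fcgrt in replicate 1, the smallest library. Without that library the log2 fold changes were 2.88 for Fcgr1, 4.0 for Fcgr4 and 0.76 for Fcgrt, and without replicate 2 they were 1.44, 1.32 and 2.07. The Fcgrt call was also lost without untreated replicate 1 or 2. Fcgr3 was at 219 and 246 CPM untreated and at 86.3 and 569 CPM with IFNg, so that its direction differed between the treated libraries. With 1 treated library left out in turn, Fcgr3 had a log2 fold change of 1.32 without replicate 1 and -1.46 without replicate 2.

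The genotypes were compared within each treatment. Untreated, 0 of the 6 genes passed in edgeR and in DESeq2 and 2 had an unadjusted p under 0.05, against 0.658% of all genes called in edgeR. These were Fcgr4, whose cKO libraries were all above WT (log2 fold change 1.48 ± 0.52, edgeR, adjusted p = 0.543), and Fcgr2b (0.41 ± 0.18, edgeR, adjusted p = 0.802), at 59.7 and 57.7 CPM in cKO. With IFNg, 0 passed in edgeR and in DESeq2 and 2 had an unadjusted p under 0.05, against 5.48% of all genes. These were Fcgr3 (-1.25 ± 0.55, edgeR, adjusted p = 0.184) and Fcgrt (0.85 ± 0.35, edgeR, adjusted p = 0.161). Without treated cKO replicate 1, which leaves 1 treated cKO library, the values were -0.43 and 0.06.

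The difference between the IFNg effects of cKO and WT was tested as an interaction, and 0 of 13075 genes passed in edgeR (1206 had an unadjusted p under 0.05). Of the 6 genes, 0 passed in edgeR and in DESeq2 and 2 had an unadjusted p under 0.05. The estimate for Fcgr4 was -2.16 ± 0.75 (edgeR, adjusted p = 0.503) and for Fcgr2b -0.62 ± 0.26 (edgeR, adjusted p = 0.532). Without treated cKO replicate 1, the Fcgr4 estimate was -1.34. Leaving out either treated cKO library left 1 in that group, so such fits cannot show the spread within it. A difference of the IFNg effects on Fcgr4 was not called with both libraries.

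Signalling partners were among the genes called with IFNg in WT, where 19.5% of all genes rose and 38.9% were called in all. Of the 24 activating signalling genes 10 rose and 2 fell, among them the phosphoinositide 3-kinase subunit Pik3cd (log2 fold change 1.58 ± 0.12), which rose, and the adaptor Blnk (-1.91 ± 0.26), which fell. Of the 9 inhibitory signalling genes 3 rose and 3 fell. Ptpn6, which encodes the phosphatase SHP-1, rose by 1.45 ± 0.28, while the inhibitory receptors Sirpa (-1.09 ± 0.22) and Cd300a (-1.07 ± 0.23) fell. Of the 10 transcription factors 7 rose and 1 fell, with Irf1 at 4.98 ± 0.18, Irf7 at 3.56 ± 0.23 and Irf8 at 3.05 ± 0.22. The medians of the activating and inhibitory lists were 0.26 and -0.16, beside -0.01 over all genes.

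Peritoneal macrophages addressed cells that had matured in the animal. The mean FPKM of Fcgr3, Fcgr2b and Fcgrt was above that of every BMDM group, as described, while Fcgr1 was low, at 16.4 ± 4.48 FPKM in WT and 25.8 ± 5.54 FPKM in cKO beside 62.6 ± 16.6 FPKM in untreated WT BMDMs of day 8. Fcgr2b was lower in cKO, at 353, 470 and 348 CPM in WT and 170, 156 and 200 CPM in cKO. The genotypes did not overlap. The log2 fold change was -1.15 ± 0.18, which is 2.23-fold lower (edgeR, adjusted p = 0.0241). It was 1 of 6 genes called, against 1.06% of all genes and 0.421% called lower. The replicate numbers paired these libraries, and with the number as a block the adjusted p in edgeR was 0.0672. The call was also lost without WT replicate 2 and without any 1 of the cKO replicates.

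The other receptors did not pass in edgeR in peritoneal macrophages. Fcgr4 was at 117, 141 and 151 CPM in WT and at 431, 223 and 303 CPM in cKO, without overlap (log2 fold change 1.23 ± 0.24, edgeR, adjusted p = 0.0653). Fcgrt was at 330, 215 and 324 CPM in WT and at 183, 142 and 140 CPM in cKO, also without overlap (log2 fold change -0.90 ± 0.21, edgeR, adjusted p = 0.121). Both passed in DESeq2, which called 3 members. Fcgr1 was at 48.2, 40.2 and 25.1 CPM in WT and at 46.6, 55.3 and 76.8 CPM in cKO, with overlap (log2 fold change 0.66 ± 0.28, edgeR, adjusted p = 0.485). Fcgr3 and Fcer1g overlapped between the genotypes, with Fcgr3 at 1737 to 2295 CPM in WT and 1371 to 1882 CPM in cKO. Peritoneal macrophage markers summed to 8493 to 9840 CPM in WT and 7116 to 8225 CPM in cKO, and macrophage markers to 12626 to 14485 and 16912 to 18644 CPM. Trem2, named from the list of adaptor-coupled receptors for its adjusted p, was higher in cKO (log2 fold change 2.50 ± 0.31, edgeR, adjusted p = 0.0112). Of all genes, 1.06% were called, and this 1 gene does not describe the list. The parts of these shifts in the receptor values were not tested.

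The antibody experiment was made to block type I interferon signalling, and it also put mouse IgG1, which the products of Fcgr2b and Fcgr3 bind, on the cells. Without antibody, 3 of the 6 genes were higher in cKO, against 8.16% of all genes and 4.01% called higher. Fcgr4 was at 33.5, 13.4 and 16.9 CPM in WT and at 86.6, 80.6 and 85.5 CPM in cKO (log2 fold change 1.99 ± 0.32, edgeR, adjusted p = 0.00180). Fcgr1 was at 43.2, 7.63 and 10.6 CPM in WT and at 170, 112 and 82.8 CPM in cKO (log2 fold change 2.57 ± 0.60, edgeR, adjusted p = 0.0159). Fcgr3 was at 188, 90.2 and 110 CPM in WT and at 219, 225 and 239 CPM in cKO (log2 fold change 0.81 ± 0.24, edgeR, adjusted p = 0.0478). The genotypes did not overlap in any of the 3 genes, and WT replicate 1 was nearest to the cKO libraries each time. Fcgr4 was called in all 6 fits without 1 library. Fcgr1 was not called without WT replicate 2 or 3 or cKO replicate 1, and Fcgr3 was called only in the fit without WT replicate 1.

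With control antibody, 1 of the 6 genes passed, against 5.11% of all genes and 3.43% called higher. Fcgr4 was at 33.8, 29.0 and 31.7 CPM in WT and at 90.5, 89.6 and 92.4 CPM in cKO (log2 fold change 1.53 ± 0.32, edgeR, adjusted p = 0.00968). The genotypes were far apart and the replicates close, and the call was lost only without WT replicate 2. Fcgr1 was at 36.0, 31.8 and 27.7 CPM in WT and at 93.2, 84.0 and 65.0 CPM in cKO, without overlap (log2 fold change 1.34 ± 0.58, edgeR, adjusted p = 0.249). With IFNAR1 antibody, 0 of the 6 genes passed in edgeR, 3 had an unadjusted p under 0.05 and DESeq2 called 2, against 0.698% of all genes in edgeR. The 3 were Fcgr1 (1.73 ± 0.59, edgeR, adjusted p = 0.243), Fcgr4 (1.33 ± 0.32, edgeR, adjusted p = 0.0753) and Fcgr2b (0.67 ± 0.17, edgeR, adjusted p = 0.108), each without overlap of the genotypes. WT replicate 3 of this arm was at 34.4 CPM for Fcgr1 and 32.5 CPM for Fcgr4, beside 9.46 and 7.47 CPM and 16.1 and 14.9 CPM in the other WT libraries. Without it both genes passed, with log2 fold changes of 2.75 and 1.78. Fcgr4 also passed without cKO replicate 1.

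**Figure D4:**
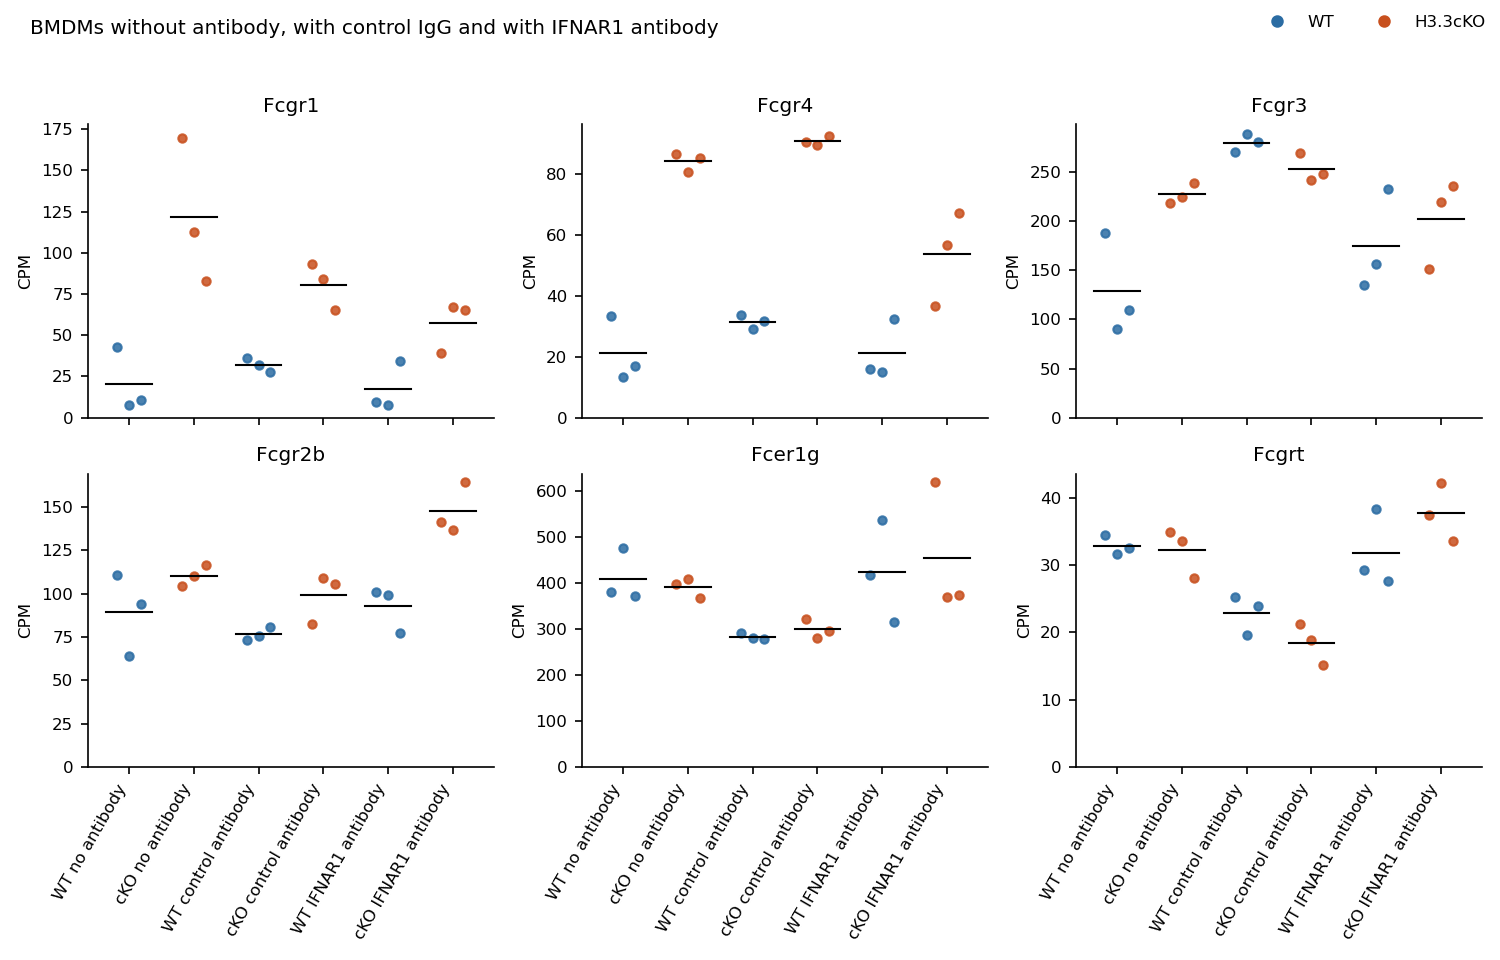
Level of the 6 genes in CPM in the antibody experiment, with points for libraries and a bar for the group mean, on axes that start at 0. With control antibody the 6 libraries held 278 to 322 CPM of Fcer1g and 15.1 to 25.2 CPM of Fcgrt, the lowest group means of the experiment for both genes.

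Addition of the control IgG was compared with no antibody in each genotype, on shared control libraries. In WT, 1 of the 6 genes passed, against 9.74% of all genes and 3.78% called higher. Fcgr3 was at 270, 289 and 281 CPM with control IgG and at 188, 90.2 and 110 CPM without. The arms did not overlap, and the log2 fold change was 1.11 ± 0.24 (edgeR, adjusted p = 0.0138). The call was lost without replicate 2 or 3 of the arm without antibody and without control antibody replicate 2 or 3. Fcgrt was at 25.2, 19.5 and 23.9 CPM with control IgG and at 34.4, 31.7 and 32.5 CPM without (log2 fold change -0.52 ± 0.16, edgeR, adjusted p = 0.0511). The replicate numbers paired these libraries, and Fcgrt passed with the number as a block (edgeR, adjusted p = 0.0391). Fcer1g was at 291, 281 and 278 CPM with control IgG and at 381, 476 and 371 CPM without, below it in every library (log2 fold change -0.53 ± 0.20, edgeR, adjusted p = 0.0954).

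In cKO, Fcgrt was the 1 gene called between control IgG and no antibody, against 2.09% of all genes and 0.919% called lower. It was at 21.2, 18.8 and 15.1 CPM with control IgG and at 34.9, 33.6 and 28.1 CPM without. The arms did not overlap, and Fcgrt fell by 0.80 ± 0.17 on the log2 scale (edgeR, adjusted p = 0.0258). The call was lost without replicate 1 or 2 of the arm without antibody and without replicate 2 or 3 of the control arm. The cKO libraries with control IgG also differed in markers of other cells, with 206 to 379 CPM of 6 stromal markers beside 41.6 to 92.4 CPM without antibody, and 97.7 to 131 CPM of patrolling monocyte markers beside 209 to 276 CPM. Their part in the Fcgrt result was not tested. Fcer1g was again lower in every library, at 322, 280 and 295 CPM with control IgG and 397, 409 and 367 CPM without, and did not pass. Fcgr3 was at 269, 242 and 248 CPM with control IgG, close to the 219, 225 and 239 CPM without.

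The IFNAR1 antibody was compared with the control antibody, so that both arms held IgG. In cKO, 1 of the 6 genes passed, against 4.68% of all genes and 2.44% called higher. Fcgrt was at 37.5, 42.2 and 33.6 CPM with IFNAR1 antibody, above the control arm in every library (log2 fold change 1.03 ± 0.17, edgeR, adjusted p = 0.00465). It was called in all 6 fits without 1 library. The comparison uses the same control arm, and the Fcgrt levels with IFNAR1 antibody overlapped with those without antibody. Stromal markers summed to 51.2 to 101 CPM with IFNAR1 antibody. Fcgr2b was at 141, 137 and 164 CPM with IFNAR1 antibody and at 82.5, 109 and 105 CPM with control antibody, without overlap (log2 fold change 0.58 ± 0.17, edgeR, adjusted p = 0.0685). Fcer1g was at 620, 369 and 373 CPM with IFNAR1 antibody, above the control arm (0.60 ± 0.20, edgeR, adjusted p = 0.101). Fcgr4 was at 36.8, 56.8 and 67.4 CPM, below the control arm (-0.76 ± 0.31, edgeR, adjusted p = 0.186).

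In WT, 0 of the 6 genes passed between IFNAR1 and control antibody in edgeR, 3 had an unadjusted p under 0.05 and DESeq2 called 3, against 11.2% of all genes called in edgeR. Fcgr3 was at 136, 157 and 233 CPM with IFNAR1 antibody, below the control arm (log2 fold change -0.68 ± 0.24, edgeR, adjusted p = 0.0709). Fcer1g was at 418, 538 and 315 CPM (0.58 ± 0.20, edgeR, adjusted p = 0.0664) and Fcgrt at 29.2, 38.4 and 27.7 CPM (0.47 ± 0.16, edgeR, adjusted p = 0.0647), both above the control arm. WT replicate 3 lay nearest to the control arm in all 3 genes. Without it Fcgr3, Fcer1g and Fcgrt passed, in a fit whose share of all genes called is not given here. The change of the cKO effect between these arms was called for 0 of 17191 genes in edgeR (990 had an unadjusted p under 0.05). For the members it was 0 in edgeR and in DESeq2 and 1 at an unadjusted p under 0.05, Fcgrt with 0.56 ± 0.23 (edgeR, adjusted p = 0.799). The summed interferon response genes were 74.9 to 124 CPM in WT and 303 to 905 CPM in cKO without antibody, 45.7 to 50.7 CPM in WT and 247 to 394 CPM in cKO with control antibody and 49.2 to 60.5 and 186 to 272 CPM with IFNAR1 antibody.

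The 3 sets of BMDMs had the deepest libraries. In set 1, 5 of the 6 genes passed between cKO and WT, against 34.6% of all genes called. Fcgr1 was at 178, 89.6 and 193 CPM in WT and at 314, 253 and 278 CPM in cKO (log2 fold change 0.88 ± 0.18, edgeR, adjusted p = 0.000591). Fcgr4 was at 47.9, 21.4 and 35.8 CPM in WT and at 82.9, 67.2 and 78.8 CPM in cKO (1.13 ± 0.25, edgeR, adjusted p = 0.000966). Fcgr3 was at 534, 400 and 521 CPM in WT and at 343, 338 and 342 CPM in cKO (-0.51 ± 0.11, edgeR, adjusted p = 0.000541). Thus in set 1 cKO cells held more Fcgr1 and Fcgr4 and less Fcgr3, each without overlap. Fcgrt was at 130, 48.9 and 124 CPM in WT and at 37.6, 28.7 and 31.4 CPM in cKO (-1.63 ± 0.30, edgeR, adjusted p = 0.000134). Fcer1g was at 583, 548 and 526 CPM in WT and at 639, 612 and 690 CPM in cKO (0.23 ± 0.08, edgeR, adjusted p = 0.0204). The call of Fcer1g was lost without WT or cKO replicate 3. Fcgr2b overlapped, at 139, 66.9 and 84.8 CPM in WT and at 77.4, 70.1 and 81.2 CPM in cKO, and did not pass.

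In set 3, 4 genes passed, against 35.9% of all genes, in the directions of set 1. Fcgr1 was at 164, 101 and 149 CPM in WT and at 235, 242 and 250 CPM in cKO (log2 fold change 0.81 ± 0.18, edgeR, adjusted p = 0.00117). Fcgr4 was at 49.4, 22.7 and 28.9 CPM in WT and at 56.3, 62.8 and 66.1 CPM in cKO (0.87 ± 0.25, edgeR, adjusted p = 0.00776), and was not called without WT replicate 2. Fcgr3 was at 478, 383 and 355 CPM in WT and at 254, 292 and 284 CPM in cKO (-0.55 ± 0.11, edgeR, adjusted p = 0.000224). These genotypes did not overlap. Fcgrt was at 154, 51.8 and 67.5 CPM in WT and at 32.2, 32.4 and 29.0 CPM in cKO (-1.55 ± 0.29, edgeR, adjusted p = 0.000198). Leaving out WT replicate 1 lowered its size to -0.94, still called. Whether the WT libraries of sets 1 and 3 share animals is not given. So sets 1 and 3 are not counted as separate support for each other.

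In set 2, 2 genes passed, against 21.9% of all genes. Fcgr4 was at 16.9, 19.6 and 15.8 CPM in WT and at 51.7, 64.0 and 45.9 CPM in cKO (log2 fold change 1.63 ± 0.25, edgeR, adjusted p = 3.37e-05). Fcer1g was lower in cKO, at 617, 610 and 612 CPM in WT and 491, 542 and 444 CPM in cKO (-0.32 ± 0.08, edgeR, adjusted p = 0.00308). Neither gene overlapped. Fcgr1 was above WT in every cKO library, at 225, 246 and 216 CPM in WT and 278, 322 and 264 CPM in cKO, and did not pass. Fcgrt overlapped, at 34.6 to 36.5 CPM in WT and 29.5 to 35.5 CPM in cKO. Fcgr2b was low in this set, at 15.1 to 17.5 CPM in WT and 20.7 to 29.2 CPM in cKO, beside 60.2 to 164 CPM in sets 1 and 3.

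The cKO effects of the sets were compared as interactions, a test added after the values of the sets were seen. Between sets 2 and 1, 2 of the 6 genes passed, against 20% of all genes. The effect on Fcgrt differed by 1.54 ± 0.41 (edgeR, adjusted p = 0.00985) and that on Fcer1g by -0.54 ± 0.11 (edgeR, adjusted p = 0.000824). Between sets 2 and 3, 3 passed, against 20.2% of all genes: Fcgrt with 1.47 ± 0.41 (edgeR, adjusted p = 0.0133), Fcer1g with -0.43 ± 0.11 (edgeR, adjusted p = 0.00539) and Fcgr2b with 1.27 ± 0.41 (edgeR, adjusted p = 0.0300). The Fcgr2b and Fcgrt calls were lost without WT set 3 replicate 1 (values of 0.70 and 0.85), and the Fcgr2b call in 5 other fits without 1 library. Between sets 3 and 1, 0 members and 0 of 18083 genes passed in edgeR, and 289 genes and 0 members had an unadjusted p under 0.05, with 0 members in DESeq2. B cell markers, mainly Ighm, summed to 95.4 to 193 CPM in WT of sets 1 and 3 and to 39.8 to 61.6 CPM in their cKO, and to 20.5 to 27.1 and 34.3 to 40.7 CPM in set 2. Neutrophil markers summed to 59.3 to 120 CPM in WT of sets 1 and 3 and to 194 to 319 CPM in their cKO. They overlapped in set 2. In set 2, patrolling monocyte markers summed to 34.8 to 46.4 CPM in WT and 91.5 to 125 CPM in cKO. They were at 92.4 to 106 and 109 to 133 CPM in set 1 and overlapped in set 3. General monocyte markers were at 95.4 to 118 and 383 to 421 CPM in set 2 and overlapped in sets 1 and 3. The part of these cells in the Fcgr2b, Fcgrt and Fcgr4 values was not tested.

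Signalling genes were called in both directions in the sets. Of the 24 activating genes, 8 were higher and 3 lower in cKO of set 1, 5 and 4 in set 2, and 8 and 4 in set 3, against 34.6%, 21.9% and 35.9% of all genes called. Plcg2, a phospholipase downstream of Syk, was higher in all of them, by 0.65 ± 0.07, 0.58 ± 0.07 and 0.64 ± 0.07 on the log2 scale in sets 1 to 3, and the kinase Lyn by 0.73 ± 0.07, 0.41 ± 0.07 and 0.68 ± 0.07. Inpp5d, the phosphatase that Fcgr2b recruits, was higher by 0.37 ± 0.08, 0.38 ± 0.08 and 0.34 ± 0.08. Each of these 9 values passed in edgeR, and the list medians lay between 0.02 and 0.14.

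**Figure D5:**
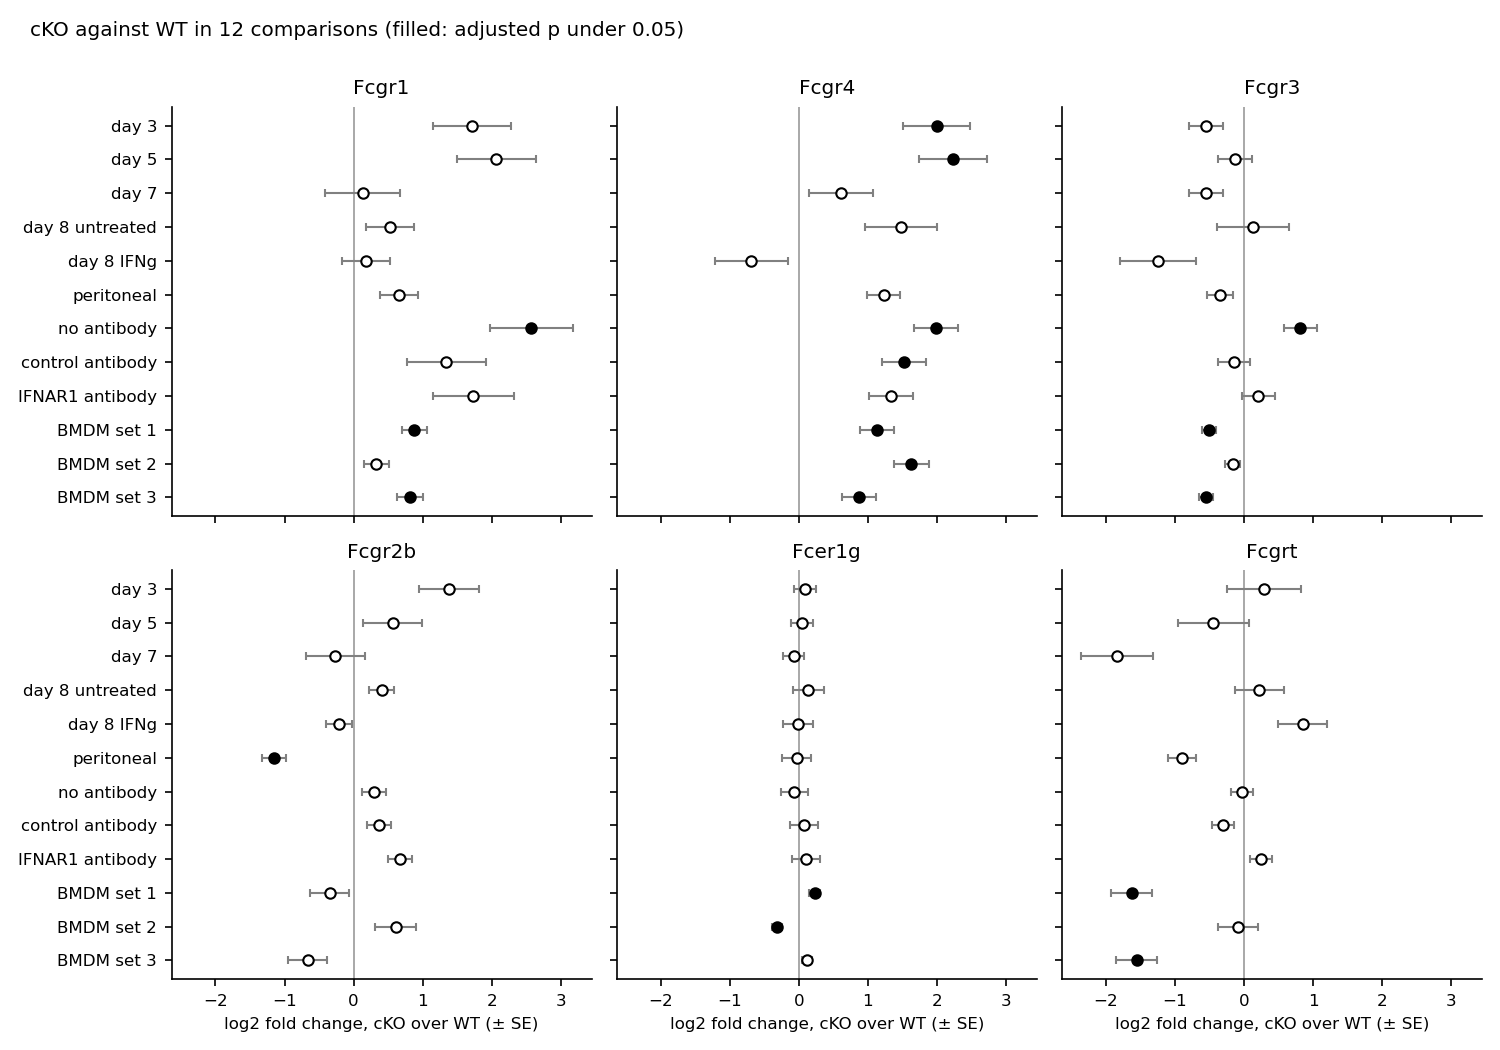
Log2 fold change of each gene between cKO and WT in 12 comparisons (points, bars are SE), filled where the adjusted p in edgeR was under 0.05. Fcgr1 lay between 0.13 and 2.57 and Fcgr4 between -0.69 and 2.24, while Fcer1g stayed between -0.32 and 0.23.

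Over the 12 comparisons of cKO with WT, Fcgr4 was called higher in 7 and Fcgr1 in 3, and neither was called lower. Fcgr1 was above 0 in 12 of 12 comparisons, with log2 fold changes from 0.13 to 2.57 and a median of 0.85. Fcgr4 was above 0 in 11 of 12, from -0.69 to 2.24 with a median of 1.41, and the exception was the comparison with IFNg. Fcgr3 was called higher in 1 and lower in 2. Fcgr2b was called lower in 1 comparison and Fcgrt in 2. BMDM sets 1 and 3, whose WT libraries may not be separate, hold 2 of the 3 calls of Fcgr1, 2 of the 7 of Fcgr4 and both lower calls of Fcgr3 and of Fcgrt. Fcer1g was called higher in 1 and lower in 1, with log2 fold changes from -0.32 to 0.23. The comparisons differ in cells, depth, kit and the fall of H3f3b, and those of 1 experiment share a model.

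The double KOs asked whether STING, the adaptor MAVS of the RIG-I-like sensors or the factor IRF7 was needed for the interferon genes of cKO cells. Since no set is tied to a double KO, each was compared with the mean of the cKO sets and of the WT sets, so genotype and culture set cannot be told apart and the comparisons share controls. In H3.3cKO:StingKO all 6 genes were higher than the mean of the cKO sets, against 36.4% of all genes called and 19.1% called higher. Fcgrt was at 81.0, 59.5 and 71.9 CPM (log2 fold change 1.13 ± 0.22, edgeR, adjusted p = 0.000376), above every cKO set library. Fcgr2b was at 86.4, 104 and 96.1 CPM (0.97 ± 0.22, edgeR, adjusted p = 0.00142) and Fcgr4 at 83.7, 115 and 106 CPM (0.68 ± 0.19, edgeR, adjusted p = 0.00680), also above them. Fcgr1, Fcgr3 and Fcer1g overlapped with the cKO sets and had log2 fold changes of 0.44 ± 0.14, 0.39 ± 0.08 and 0.27 ± 0.06. The call of Fcgr1 was lost without StingKO replicate 2 or 3 and that of Fcgr4 without StingKO replicate 2. With set 1 alone as the reference only Fcgrt was called. Stromal markers summed to 182 to 228 CPM in H3.3cKO:StingKO and 27.3 to 81.0 CPM in the cKO sets, and interferon response genes to 1543 to 1946 and 900 to 1342 CPM. Their part in these differences was not tested. Against the mean of the WT sets 4 genes were called, against 40.2% of all genes and 20.5% called higher. They were Fcgr4 (1.89 ± 0.18), Fcgr1 (1.11 ± 0.14), Fcgr2b (0.83 ± 0.22) and Fcer1g (0.28 ± 0.06), all higher. Fcgr2b changed sign with set 1 or set 3 alone as the reference (-0.02 and -0.06).

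In the libraries labelled H3.3cKO:MavsKO, 0 of the 6 genes differed from the mean of the cKO sets in edgeR and in DESeq2, 2 had an unadjusted p under 0.05, and 9.32% of all genes were called. Fcgr1 was at 287, 281 and 298 CPM and Fcgr4 at 50.5, 53.5 and 51.9 CPM, inside the range of the cKO sets. Fcgr2b was at 19.9, 44.5 and 23.2 CPM (log2 fold change -0.74 ± 0.25, edgeR, adjusted p = 0.0592), nearer to set 2 than to sets 1 and 3. It passed without MavsKO replicate 2 at -1.18. Against the mean of the WT sets 5 genes were called, against 43.2% of all genes. Fcgr4 (0.92 ± 0.19) and Fcgr1 (0.77 ± 0.14) were higher, and Fcgrt (-0.95 ± 0.25), Fcgr2b (-0.87 ± 0.25) and Fcgr3 (-0.51 ± 0.09) lower. The call of Fcgr2b was lost without MavsKO replicate 1 or 3. With set 2 alone as the reference Fcgr2b was higher by 0.87 and Fcgrt was at 0.02.

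In H3.3cKO:Irf7KO, 1 of the 6 genes differed from the mean of the cKO sets, against 10.6% of all genes and 4.81% called higher. Fcgr2b was at 75.1, 84.5 and 84.3 CPM (log2 fold change 0.73 ± 0.22, edgeR, adjusted p = 0.0357) and overlapped with the cKO sets. The call was lost in DESeq2, in 9 of 12 fits without 1 library and with set 1 or set 3 alone as the reference (0.09 and 0.37). Fcgr4 was at 101, 58.2 and 61.1 CPM and Fcgr1 at 234, 211 and 213 CPM, the latter below every cKO set library without passing. Against the mean of the WT sets 4 genes were called, against 31.9% of all genes. Fcgr4 (1.42 ± 0.19) and Fcgr2b (0.60 ± 0.23) were higher, and Fcgrt (-1.03 ± 0.25) and Fcgr3 (-0.40 ± 0.09) lower. The Fcgr2b call was lost in 9 of 12 fits without 1 library, and its value was -0.25 and -0.29 with set 1 or set 3 alone as the reference. Fcgr4 was thus above the mean of the WT sets in all 3 double KOs, without overlap with any WT set library.

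The genes with the most similar pattern were found by the correlation of log2 CPM over the 79 libraries, centred within each experiment, among 8724 genes tested in every experiment. The libraries share conditions, so the values describe the pattern only. Among the genes most like Fcgr1 were Irgm2 (Pearson r = 0.910) and Parp12 (0.895), and Fcgr4 was most like Igtp (0.931), Gbp7 (0.917) and Gbp3 (0.902), which are known interferon-inducible genes. Fcgr1 and Fcgr4 had r = 0.849 with each other. Fcgr3 was most like Ripk1 (0.836), Tango2 (0.805) and Sri (0.799), and Fcgr2b like Hacd4 (0.812), Tcn2 (0.801) and Rftn1 (0.742). Fcer1g was most like Tmem106a (0.774), Sdcbp (0.745) and Ehd4 (0.735), and Fcgrt like Cyp27a1 (0.885), Pip4p1 (0.820) and Ip6k1 (0.806).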

How the data were processed

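The authors sequenced 81 libraries and deposited counts of read pairs per gene identifier for each, as written by STAR. Adapters were trimmed with Cutadapt and reads aligned to mm10, and the versions of STAR and of the annotation are not given in the sources used here. Rows that name no gene were left out: unmapped reads (1.691% to 57.06% of a library), multimapping reads (5.815% to 17.46%), reads in no gene (3.761% to 28.85%) and reads on overlapping genes (3.161% to 6.226%). The column without regard to strand was used, so antisense and overlapping genes cannot be told apart. Labels name an rRNA depletion kit for all libraries, while the methods name another kit for peritoneal cells. Groups followed the labels, and 79 libraries were compared.

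Counts of each experiment were filtered (filterByExpr, at least 10 counts a library and 15 in all), scaled by TMM and fitted in one model per experiment with edgeR 4.0.16 (quasi-likelihood F-test, R 4.3.3), with Benjamini-Hochberg adjustment over all genes and a threshold of 0.05. Log2 fold changes carry SE. DESeq2 1.42.0, RLE scaling, no filter, a strand column, fits of the compared groups alone, a replicate block and leaving out libraries were alternatives. The scripts were tested on simulated data. The 6 genes were named by the Fc receptor rule, and listed genes by the lowest adjusted p in their list. Members and lists were chosen with earlier results of these data known. Some listed genes are not reported here. Gene positions were taken from GENCODE M21 by identifier. Joint levels used one TMM scaling of all libraries.

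Whether replicate numbers pair libraries was checked by the correlation of same-numbered deviations from group means, and the numbers were taken to pair them where each of 3 correlations was over 0.1. They did so in 6 of 20 comparisons: cKO against WT on day 3 (0.126 to 0.419), on day 7 (0.153 to 0.467) and in peritoneal macrophages (0.144 to 0.194), day 7 against day 3 in cKO (0.138 to 0.415), IFNg in WT (0.335 to 0.451) and control antibody against none in WT (0.145 to 0.284).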

Additional observations from a re-analysis of the deposited data

Results flagged for a closer look

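The cKO effect on the common chain and on the neonatal receptor differed between culture sets of the same labels. BMDM set 2 was compared with the other sets by an interaction term, in a test added after the values of the sets had been seen. Fcer1g was lower in cKO than in WT in set 2 and not in the others, and the difference of the effects on the log2 scale was -0.54 against set 1 and -0.43 against set 3. For Fcgrt the differences were 1.54 and 1.47, since the WT libraries of sets 1 and 3 held 48.9 to 154 CPM and those of set 2 held 34.6 to 36.5 CPM. For Fcgr2b the difference was 1.27 against set 3. Without WT set 3 replicate 1 the differences from set 3 were 0.70 for Fcgr2b and 0.85 for Fcgrt, and neither was called in edgeR. In the WT libraries B cell markers summed to 95.4 to 193 CPM in sets 1 and 3 and to 20.5 to 27.1 CPM in set 2, and their part in these differences was not tested.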

How the results depend on the processing

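Depth and the number of replicates limit these results: the groups held 3 libraries or 2, and the smallest library, on day 8, held 3614967 counts. Of the 98 values of single genes with an unadjusted p under 0.05, 56 passed the adjusted threshold. Over their alternatives 1291 values kept their direction and their side of the threshold, 114 lost the call, 77 gained it and 10 changed direction. For the changes below the cause was not tested, except that fits with fewer libraries or fewer genes are smaller by construction. All counts are of the 6 genes.

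With DESeq2 the count of genes called went from 1 to 2 for cKO against WT on day 3 and on day 5, from 0 to 1 on day 7, from 1 to 3 in peritoneal macrophages and from 0 to 2 with IFNAR1 antibody. It went from 1 to 2 for control antibody against none in WT, from 0 to 3 and from 1 to 2 for IFNAR1 against control antibody in WT and cKO, and from 1 to 0 for H3.3cKO:Irf7KO against the cKO sets. In total DESeq2 made 67 calls and edgeR 56. With relative log expression scaling, and with the strand column of the larger total, the count for control antibody against none in WT went from 1 to 2, and the totals were 58 and 57. Without the filter on low counts it went from 1 to 2 on day 5, from 0 to 1 for both genotype comparisons of day 8 and for the difference of their IFNg effects, from 1 to 3 in peritoneal macrophages and from 0 to 1 for H3.3cKO:MavsKO against the cKO sets. When only the groups compared entered the fit, it went from 1 to 4 on day 3, from 1 to 0 on day 5, from 3 to 0 and from 0 to 3 for day 7 against day 3 in WT and cKO, from 0 to 2 on day 8 untreated and from 3 to 0 for IFNg in cKO. In these fits it went from 1 to 3 with control antibody, from 1 to 3 and from 1 to 2 for control antibody against none in WT and cKO, from 2 to 4 in BMDM set 2, and from 0 to 2 and from 1 to 2 for H3.3cKO:MavsKO and H3.3cKO:Irf7KO against the cKO sets. With the 2 cKO libraries of conflicting labels placed by their titles, the counts for IFNg went from 4 to 0 in WT and from 3 to 0 in cKO, while placing them by the library name gave 7 calls, as without them.

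With the replicate number as a block the count went from 1 to 2 on day 3 and on day 5 (Fcgr1 in both), from 3 to 5 for day 7 against day 3 in WT, from 1 to 0 in peritoneal macrophages and from 1 to 2 for control antibody against none in WT, and the block changed no other count by over 1.5 times. On day 5 and for day 7 against day 3 in WT the numbers did not pair the libraries by the check, so the samples share only a number there. The 2 numbers of the cKO libraries with and without IFNg had a correlation of -0.187, and a block with the numbers crossed, tried after seeing the data, made 7 calls on day 8, as did the fit without a block.

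With 1 BMDM set alone as the reference, the count for H3.3cKO:StingKO against the cKO sets went from 6 to 1 (set 1). For H3.3cKO:MavsKO against the cKO sets it went from 0 to 3 (set 1) and to 1 (set 3), and against the WT sets from 5 to 3 (set 2). For H3.3cKO:Irf7KO it went from 1 to 0 (sets 1 and 3) against cKO and from 4 to 2 (set 2) against WT. The log2 fold changes that turned were those of Fcgr2b for H3.3cKO:StingKO against WT (-0.0185 with set 1, -0.0609 with set 3), of Fcgr2b (0.26) and Fcer1g (0.0167) for H3.3cKO:MavsKO against cKO with set 2, of Fcgr2b (0.87) and Fcgrt (0.0159) for H3.3cKO:MavsKO against WT with set 2, of Fcgr1 (-0.0654) and Fcgr3 (0.0261) for H3.3cKO:Irf7KO against WT with set 2, and of Fcgr2b for the same (-0.25 with set 1, -0.29 with set 3).

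Without 1 library at a time the count ranged from 0 to 1 on day 3, 0 to 2 on day 5, 0 to 2 on day 7, 1 to 4 for day 7 against day 3 in WT, and 0 to 1 for the change of the cKO effect between those days. It ranged from 0 to 5 for cKO against WT with IFNg, 2 to 4 and 2 to 5 for IFNg in WT and cKO, 0 to 6 for the difference of the IFNg effects, and 0 to 1 in peritoneal macrophages. In the antibody experiment it ranged from 1 to 3 without antibody, 0 to 1 with control antibody and 0 to 2 with IFNAR1 antibody, from 0 to 3 and 0 to 1 for control antibody against none in WT and cKO, and from 0 to 5 for IFNAR1 against control antibody in WT. It ranged from 0 to 1 for H3.3cKO:MavsKO and H3.3cKO:Irf7KO against the cKO sets, and from 2 to 4 and 1 to 4 for the differences of set 2 from sets 1 and 3. Where a day 8 cKO group kept 1 library, that library was taken to vary like the other groups. Shares of all genes called are not given for fits without 1 library, so these counts are not read as results about the members.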

Other observations

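A pair of cKO libraries of day 8 entered no comparison, because the title and the library name of each disagree on IFNg. The library titled as IFNg-treated and named as untreated held 149.5 CPM of Fcgr1, 58.3 CPM of Fcgr2b, 198 CPM of Fcgr3, 38.2 CPM of Fcgr4, 399 CPM of Fcer1g and 21.9 CPM of Fcgrt. The library titled as untreated and named as IFNg-treated held 1324 CPM of Fcgr1, 74.8 CPM of Fcgr2b, 588 CPM of Fcgr3, 722 CPM of Fcgr4, 696 CPM of Fcer1g and 39.8 CPM of Fcgrt.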
